A study of Homo sapiens with 4 samples.

Results

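Ribosomal protein genes encode the proteins of the cell's 2 kinds of ribosome, the cytosolic ribosome and the ribosome inside mitochondria. They were taken by current symbol from the 57820 gene identifiers of the count files: protein-coding genes named RPL or RPS with a number, RPLP0 to RPLP2, RPSA, and genes named MRPL or MRPS with a number. The name rule took 166 genes, 90 of the cytosolic and 76 of the mitochondrial kind. Of the 90, 3 were read-through loci without a read, 1 was a pseudogene by its current symbol (RPS27AP5) and 1, RPS19BP1, is not a ribosomal protein. That left 85 cytosolic genes (53 large subunit, 32 small subunit) and 76 mitochondrial genes (48 large subunit, 28 small subunit), and counts of members below refer to these. Subunits were taken from the L or S of the symbol, and neither these nor membership of the ribosome was checked otherwise. MRPL45 and MRPS21 had no matched identifier and were not analysed here.

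Cytosolic ribosomes make nearly all proteins of the cell, and their protein genes are transcribed together at high levels in growing cells. Their mRNAs begin with a cytosine followed by a run of pyrimidines, the terminal oligopyrimidine (TOP) tract, through which mTOR signalling controls their translation. Mitochondrial ribosomal proteins are also encoded in the nucleus and made in the cytosol, are imported, and serve to translate the few mRNAs of the mitochondrial genome, which encode subunits of the respiratory chain. Their mRNAs generally lack the TOP tract.

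The cells were Daoy, an established human medulloblastoma line, and the study set out to lower ARID1B, a DNA-binding subunit of the BAF chromatin remodelling complex. In 1 library, labelled shARID1B, a polyclonal population carried a doxycycline-inducible ARID1B short hairpin RNA in the lentiviral vector tet-pLKO-puro. The 3 other libraries were labelled wild type (WT1, WT2 and WT3). Doxycycline at 1 µg/ml for 72 h is stated for the series, so the drug is shared by both groups, and the design names both vector-only and parental cells as controls without saying which WT library is which. Poly(A) RNA was read as 100-nucleotide single reads, and 8792848 reads were assigned to genes in the library labelled shARID1B and 12619786, 13228587 and 15390106 in WT1, WT2 and WT3.

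Levels are library-scaled CPM, which are read counts brought to a common library size. The shRNA arm is a single library without a replicate, so each test takes its spread from the WT libraries. Nothing in the labels describes those as separate cultures, and p-values may then measure technical spread only. ARID1B itself measured 175 CPM in the library labelled shARID1B, against 164, 87.9 and 72.8 CPM in WT1, WT2 and WT3, so the target was not lower where the label says it should be. Its log2 fold change was 0.69 ± 0.46 (SE, adjusted p = 0.399), 1.12 (adjusted p = 0.026) without WT1 and -0.10 (adjusted p = 0.938) with the trend on GC content and length removed as described below. Summed over 11 markers of medulloblastoma and neural progenitors the level was 1002 CPM in the library labelled shARID1B, against 2710, 2484 and 2487 CPM in WT1, WT2 and WT3, with 1 marker at 0 in all 4 libraries. VIM made up most of that sum, with 935 CPM, against 2653, 2439 and 2435 CPM. The 10 other markers summed to 66.6 CPM in the library labelled shARID1B, against 56.2, 44.8 and 52.1 CPM in WT, above every WT library. Among them ZIC2 (24.7 CPM, against 8.91, 10.6 and 8.12 CPM), GLI2 and BARHL1 (0.114 CPM) were above every WT library. For BARHL1 this was 1 read, against 0, 0 and 0 reads. SOX2, OTX2, NEUROD1 and MYCN were below every WT library, and NES and ZIC1 lay within the WT range. NEUROD1 had 0 reads, against 6, 4 and 5 reads, so its direction and that of BARHL1 rest on very few reads. Markers of mature neurons and of glia summed to at most 19.4 and 5.71 CPM in any library, and those of blood, endothelium and epithelium to under 4 CPM. The part of these differences in the results below was not tested, and in bulk RNA a change in the mix of cells cannot be told apart from a change per cell.

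The start sites of the most abundant genes show how the classes differ in sequence. For each class the 4 members with the highest WT level per kilobase of coding sequence are shown among those found in the RefSeq promoter table (GRCh38.p14), with 20 bases before and 20 bases after the annotated start. Capitals mark the first run of at least 5 pyrimidines in the transcribed bases.
RPL41 (chr12:56116613-56116652, plus strand): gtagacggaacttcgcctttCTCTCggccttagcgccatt
RPS18 (chr6:33272055-33272094, plus strand): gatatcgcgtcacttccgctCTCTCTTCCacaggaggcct
RPL37A (chr2:216498824-216498863, plus strand): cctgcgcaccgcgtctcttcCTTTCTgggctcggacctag
RPL11 (chr1:23691759-23691798, plus strand): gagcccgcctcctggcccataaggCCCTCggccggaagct
MRPL51 (chr12:6493243-6493282, minus strand): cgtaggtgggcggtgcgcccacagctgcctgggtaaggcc
MRPS16 (chr10:73252625-73252664, minus strand): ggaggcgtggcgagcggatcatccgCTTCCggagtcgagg
MRPL33 (chr2:27771699-27771738, plus strand): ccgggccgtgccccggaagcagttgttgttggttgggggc
MRPL18 (chr6:159789792-159789831, plus strand): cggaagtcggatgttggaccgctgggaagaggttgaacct

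In RPL41, RPS18 and RPL37A the pyrimidine run begins at the first transcribed base. RPL11 has a run that begins at base 5 of the annotated transcript. Of the 4 mitochondrial genes, MRPS16 alone has a run, at base 6.

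Across the classes the start-site difference was broad. Promoters were found for 68 of the 85 cytosolic and 67 of the 76 mitochondrial genes, and were set beside all 15843 protein-coding promoters of the table. A C at the first transcribed base was present in 70.6% of cytosolic genes, 10.4% of mitochondrial genes and 11.3% of all promoters. At least 8 pyrimidines among the first 10 transcribed bases were found in 64.7% of cytosolic genes, 5.97% of mitochondrial genes and 9.86% of all promoters. The letters CTTTC on the sense strand, from 10 bases before to 15 after the start, occurred in 39.7% of cytosolic, 4.48% of mitochondrial and 3.48% of all promoters.

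Motifs in the 300 bases around the start, searched on both strands, also differed between the classes. TCTCGCGA was present in 16.2% of cytosolic, 2.99% of mitochondrial and 1.75% of all promoters. The YY1 letters AAGATGGC, which hold a start codon and so can also lie in coding sequence, were present in 28.4% of mitochondrial, 10.3% of cytosolic and 3.91% of all promoters. Both classes carried the ETS letters ACTTCCGG at like shares, 16.4% of mitochondrial and 16.2% of cytosolic against 6.19% of all promoters. For the NRF1 letters GCGCATGC the shares were 8.96%, 4.41% and 4.26%, and for the E-box letters CACGTG they were 7.46%, 5.88% and 8.88%, in mitochondrial, cytosolic and all promoters in that order. These matches describe letters in a window and are not measured binding sites.

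The total output of either class differed little between the library labelled shARID1B and WT. Cytosolic genes took 3.88% of the reads assigned to genes in the library labelled shARID1B (exact 95% Clopper-Pearson interval 3.864% to 3.890%), against 4.18%, 3.64% and 3.98% in WT1, WT2 and WT3 (mean 3.93% ± 0.272, SD, n = 3). Mitochondrial genes took 0.325% (0.321% to 0.328%), against 0.338%, 0.314% and 0.311% (mean 0.321% ± 0.0149). Both sums lay inside the WT range. The intervals cover counting error only, and the spread between WT libraries was the larger error.

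The balance between the classes and between subunits differed little too. Reads on mitochondrial genes per read on cytosolic genes came to 0.0837 in the library labelled shARID1B, against 0.0809, 0.0864 and 0.0782 in WT1, WT2 and WT3, again inside the WT range. Small-subunit per large-subunit reads of the cytosolic ribosome were 0.597 in the library labelled shARID1B, against 0.605, 0.618 and 0.622 in WT. For the mitochondrial genes, with subunits taken from the symbol, the same ratio was 0.599, against 0.622, 0.618 and 0.605. Both subunit ratios were below all 3 WT values, by less than the width of the WT range in each case.

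**Figure D1:**
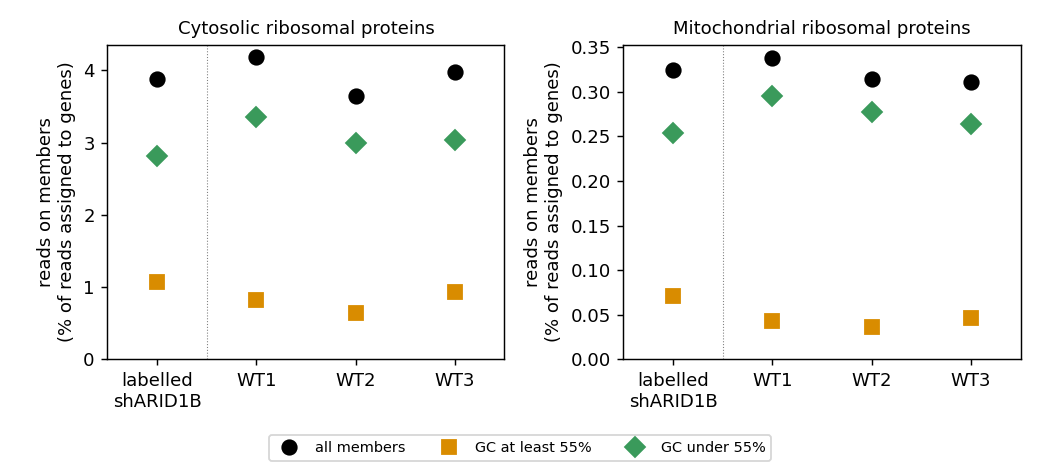
Reads on ribosomal protein genes as percent of the reads assigned to genes, by library, for all members and for members with a GC content of at least 55% or under 55% (points, 1 value per library). The totals of the library labelled shARID1B (3.88% and 0.325%) sit inside the WT range, while the GC-rich members sit above all 3 WT libraries and the others below them.

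Of the 85 cytosolic genes 83 passed the filter on low counts, and of the 76 mitochondrial genes 75 did. RPL3L, a muscle paralogue of RPL3, had 0 CPM in the library labelled shARID1B and at most 0.195 CPM in WT. MRPL30 was at 0 CPM in the library labelled shARID1B, against 0.0775, 0 and 0.065 CPM in WT1, WT2 and WT3, and 100% of its coding bases lie in exons of another gene.

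Past the threshold (adjusted p below 0.05) 1 of 83 cytosolic genes was higher in the library labelled shARID1B and 0 were lower. Among all 17024 tested genes, 3.65% were called higher and 0.834% lower. Of the 75 mitochondrial genes 4 were higher and 0 lower, and MRPL12 among the 4 passed the filter only through the library labelled shARID1B. Neither class stood far from that background. At an unadjusted p below 0.05 there were 10 cytosolic genes higher and 5 lower, and 13 mitochondrial genes higher and 1 lower, beside 15.6% higher and 9.79% lower among all tested genes. DESeq2 called 6 cytosolic and 7 mitochondrial genes, all higher, beside 7.85% higher among all tested genes. Without WT2 the counts were 0 cytosolic and 1 mitochondrial gene (MRPL12), beside 0.836% higher among all genes tested. Without WT3 they were 2 (RPLP1 and RPS28) and 3, beside 2.68%.

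The median log2 fold change was -0.12 over the cytosolic genes and -0.05 over the mitochondrial genes, beside -0.05 over all tested genes. The members changed less than most genes: 65 cytosolic genes (78.3%) and 55 mitochondrial genes (73.3%) lay within 0.5 of 0 on the log2 scale, beside 53.2% of all tested genes. Their interquartile ranges were 0.58 and 0.72, beside 0.93 for all tested genes. Between the WT libraries they also varied less, with a median coefficient of variation of 8.56% for cytosolic and 8.99% for mitochondrial genes, beside 16.8% for all tested genes. These figures are not matched on abundance.

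Single genes often stood outside the WT range by a small margin. The library labelled shARID1B was above all 3 WT libraries for 26 cytosolic and 27 mitochondrial genes, and below all 3 for 41 and 31. Of all tested genes 35.4% were above and 37.9% were below. The shares below were 49.4% for the cytosolic and 41.3% for the mitochondrial genes.

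**Figure D2:**
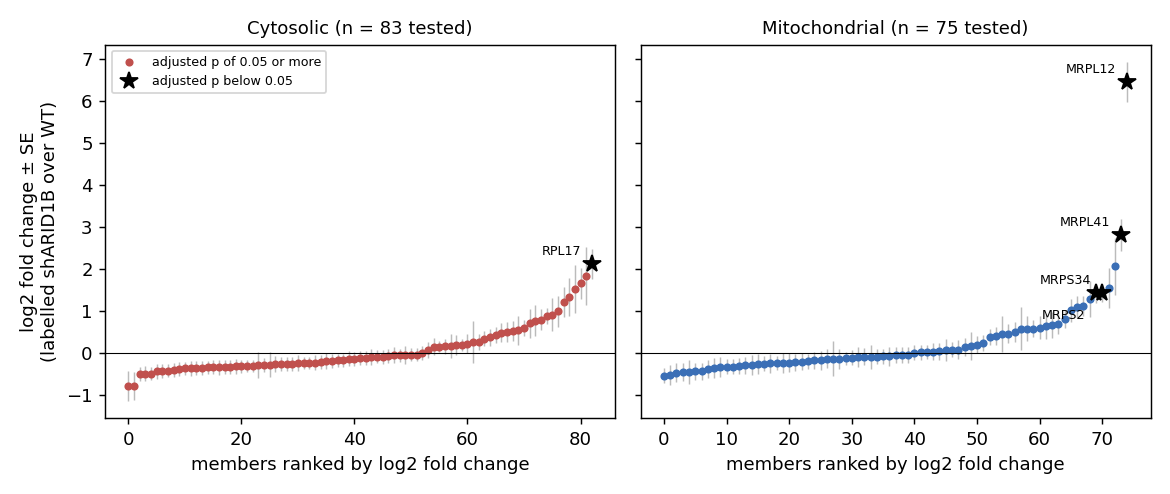
Log2 fold change (library labelled shARID1B over WT) with SE for each tested member, ranked within its class. Stars mark the 5 genes with an adjusted p below 0.05, and most other members lie within 0.5 of 0.

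The cytosolic large subunit holds the P stalk, which recruits the translation GTPases, and 2 of its 3 proteins gave some of the highest fold changes of the class. RPLP1 measured 478 CPM in the library labelled shARID1B, against 134, 106 and 213 CPM in WT1, WT2 and WT3 (log2 fold change 1.66 ± 0.37, adjusted p = 0.0737). RPLP2 measured 353 CPM, against 126, 88.0 and 208 CPM (1.33 ± 0.45, adjusted p = 0.153). Both were above every WT library, and in both WT3 stood well above WT2. RPLP0, the scaffold that holds both, measured 1103 CPM, against 1338, 1006 and 1072 CPM, which lies inside the WT range (-0.05 ± 0.21, adjusted p = 0.911). RPLP1 passed the threshold without WT3 (adjusted p = 0.0403) and under DESeq2, and RPLP2 under DESeq2. With the trend on GC content and length removed, RPLP1 gave 1.83 and RPLP2, which has 60.6% GC content, 0.62.

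RPL17, a protein at the exit tunnel of the large subunit, was the cytosolic gene past the threshold. It measured 12.0 CPM (105 reads) in the library labelled shARID1B, against 2.63, 2.16 and 3.38 CPM (34, 28 and 52 reads) in WT1, WT2 and WT3. All WT libraries lay far below, and the fit gave 2.12 ± 0.35 (adjusted p = 0.036), or 4.36-fold. The call was lost without WT2 (adjusted p = 0.0663) or WT3 (0.0609). In the annotation used here 100% of its coding bases lie in exons of another gene on the same strand, and the part of that overlap in its level was not tested.

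Other high values of the cytosolic class did not pass. RPS28, a small-subunit protein near the mRNA exit, measured 121 CPM in the library labelled shARID1B, against 24.0, 15.6 and 62.1 CPM in WT (1.83 ± 0.70, adjusted p = 0.192). RPL36, of the large subunit, measured 271 CPM, against 77.6, 51.6 and 153 CPM (1.52 ± 0.56, adjusted p = 0.177). In both, WT3 was at least as far above WT2, in ratio, as the library labelled shARID1B was above WT3. RPS28 passed without WT3 (2.61, adjusted p = 0.0438), and RPL36 under DESeq2. With the trend on GC content and length removed, RPS28 gave 1.23 and RPL36 0.64. At the low end RPL10L had 3.53 CPM, against 6.12, 5.33 and 6.89 CPM (-0.79 ± 0.36, adjusted p = 0.240), and RPS23, a decoding-centre protein, had 152 CPM, against 219, 211 and 215 CPM (-0.50 ± 0.16, adjusted p = 0.130).

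The most abundant cytosolic genes per kilobase were lower or near WT. RPL41, the smallest protein of the class, measured 207 CPM in the library labelled shARID1B, against 271, 322 and 281 CPM in WT (-0.49, adjusted p = 0.165). RPS18, of the small subunit's head, measured 1925 CPM, against 1800, 1677 and 1743 CPM (0.15, adjusted p = 0.561). Neither differed beyond the threshold, although both lay outside the WT range, on opposite sides.

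Ribosomal proteins with known roles outside protein synthesis or in disease also stayed under the threshold. RPL5, which with RPL11 binds MDM2 when ribosome assembly fails, measured 1258 CPM in the library labelled shARID1B, against 1633, 1526 and 1386 CPM in WT (-0.27, adjusted p = 0.360). RPL11 measured 898 CPM, against 1108, 1039 and 1034 CPM (-0.24, adjusted p = 0.365). Both were below all 3 WT libraries. RPS19, the gene most often mutated in Diamond-Blackfan anaemia, measured 660 CPM, against 415, 333 and 616 CPM (0.54, adjusted p = 0.376). RPS26, another gene of that disease, measured 114 CPM, against 151, 131 and 149 CPM (-0.34, adjusted p = 0.289). RPS6, the substrate of the S6 kinases, measured 551 CPM, against 695, 627 and 592 CPM (-0.21, adjusted p = 0.469). RPS19 was high and RPS26 and RPS6 were low against every WT library, by amounts the WT spread does not separate from 0. With the trend on GC content and length removed, RPL5 and RPS6 turned to 0.10 and 0.07.

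RPS27A, made as a fusion with ubiquitin, measured 455 CPM in the library labelled shARID1B, against 582, 648 and 589 CPM in WT (-0.42, adjusted p = 0.182). RPSA, also known as a laminin receptor, measured 519 CPM, against 662, 610 and 558 CPM (-0.23, adjusted p = 0.433). Of the 15 tested genes in the 8 paralogue pairs 0 passed in either direction, and their median log2 fold change was -0.12. Among these the pair RPL39 and RPL39L gave -0.33 (adjusted p = 0.287) and 0.50 (adjusted p = 0.239). How alike the sequences of each pair are was not measured. Where paralogues or pseudogenes are near-identical, their reads may be split or dropped by the counting, so such values are uncertain. The 1594 pseudogenes named after cytosolic ribosomal proteins took 0.0965% of genic reads in the library labelled shARID1B, against 0.108%, 0.0929% and 0.0926% in WT.

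Of the mitochondrial genes, MRPL41, a large-subunit protein, had the highest fold change among those whose coding sequence is not shared. It measured 32.3 CPM in the library labelled shARID1B, against 4.26, 3.09 and 6.37 CPM in WT1, WT2 and WT3. No WT library came near, and the log2 fold change was 2.81 ± 0.38 (adjusted p = 0.0288), or 7.03-fold. With 71.9% GC content it is the most GC-rich member.

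MRPS34 and MRPS2, both of the mitochondrial small subunit, were the other called genes of unshared sequence. MRPS34, in which mutations cause Leigh syndrome, measured 65.1 CPM, against 23.5, 21.8 and 27.5 CPM in WT (1.42 ± 0.21, adjusted p = 0.0316). MRPS2 measured 75.8 CPM, against 26.8, 24.9 and 33.5 CPM (1.42 ± 0.23, adjusted p = 0.0351). The WT libraries agreed closely for both genes, and the library labelled shARID1B was more than 2-fold above each. Their GC contents were 64.5% and 61.4%. Without WT2 the adjusted p was 0.050 for MRPL41, 0.0594 for MRPS34 and 0.0652 for MRPS2, and without WT3 it was 0.0502 for MRPS34.

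MRPL12, which forms the stalk of the mitochondrial large subunit and is also known to bind the mitochondrial RNA polymerase, had 82 reads in the library labelled shARID1B, against 1, 2 and 1 reads in WT1, WT2 and WT3. That is 9.34 CPM, against 0.0775, 0.154 and 0.065 CPM. The ratio was 96.3, with an exact 95% counting interval of 36.2 to 362, and the adjusted p was 0.0149. It passed the filter only through the library labelled shARID1B, and 96.0% of its coding bases lie in exons of another gene on the same strand.

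MRPL11, also of the mitochondrial large subunit, measured 35.2 CPM in the library labelled shARID1B, against 33.0, 28.1 and 30.5 CPM in WT (0.20, adjusted p = 0.577). MRPS12, a decoding-centre protein, measured 29.3 CPM, against 14.4, 11.5 and 14.4 CPM (1.12 ± 0.24, adjusted p = 0.0621), above every WT library but short of the threshold, and 0.60 once the trend on GC content and length was removed. The 3 paralogues MRPS18A, MRPS18B and MRPS18C, which occupy different sites of the mitochondrial ribosome, gave 0.46, -0.18 and -0.09, with adjusted p of 0.271, 0.660 and 0.875.

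At the low end, no mitochondrial gene passed. MRPL35 measured 48.3 CPM in the library labelled shARID1B, against 70.9, 71.8 and 67.5 CPM in WT (-0.54 ± 0.18, adjusted p = 0.140). MRPS27 measured 112 CPM, against 170, 165 and 130 CPM (-0.47 ± 0.22, adjusted p = 0.244). Both lay below all WT libraries. MRPL51, the most abundant mitochondrial gene per kilobase, measured 84.4 CPM, against 114, 107 and 97.9 CPM (-0.33, adjusted p = 0.299).

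**Figure D3:**
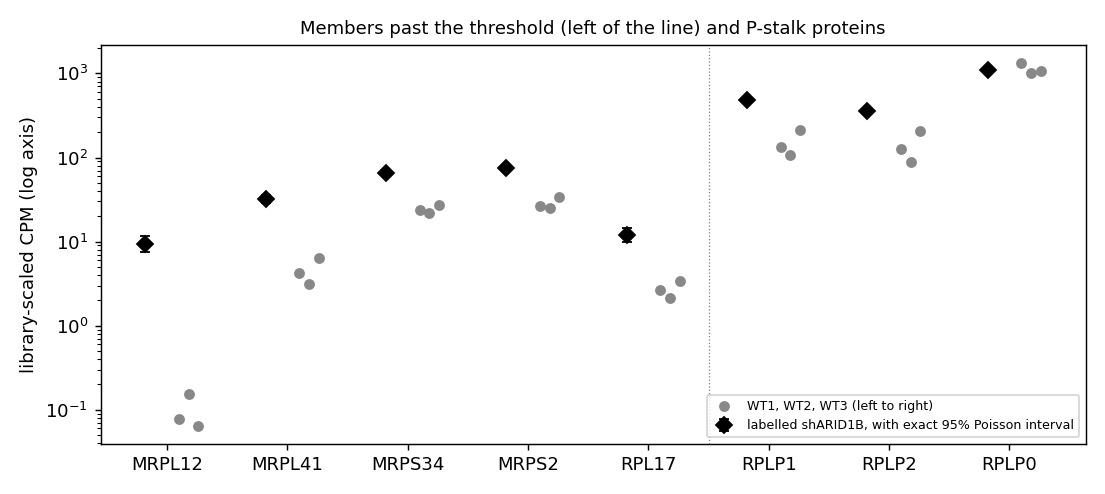
Library-scaled CPM on a log axis for the 5 members with an adjusted p below 0.05 and for the P-stalk proteins, with the library labelled shARID1B (diamonds, exact 95% Poisson interval, often smaller than the symbol) left of WT1, WT2 and WT3 (circles). RPLP1 and RPLP2 are above every WT library, and RPLP0 lies among them.

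Per kilobase of coding sequence, cytosolic genes had a median level of 897 CPM in the library labelled shARID1B and 851 CPM in WT, and mitochondrial genes 61.4 and 51.4 CPM. The cytosolic median was thus 14.6 times the mitochondrial median in the library labelled shARID1B and 16.6 times in WT. The WT medians were taken over mean WT levels, so no spread between WT libraries stands beside this difference. The ratio of the classes in summed reads, given above, lay inside the WT range. In WT the levels ran to 3885 CPM for RPL41 and to 277 CPM for MRPL51.

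Many of the lowest levels went with gene overlap. In the GENCODE 29 annotation (GRCh38), 7 cytosolic and 8 mitochondrial genes have at least 50% of their coding bases in an exon of another gene on the same strand, often a read-through locus. HTSeq sets aside a read that fits 2 genes as ambiguous in its usual modes, and the mode used is not given. The median WT level of these genes was 22.8 CPM per coding kilobase for the 7 cytosolic genes, beside 881 for the 78 others, and 2.28 for the 8 mitochondrial genes, beside 59.7 for the 68 others. Of the 8 lowest mitochondrial genes 6 were of this kind, and of the 7 lowest cytosolic genes 4. The called genes RPL17 and MRPL12 belong to this group, as do RPS10, RPL36A, MRPL30, MRPL38, MRPL46, MRPL53, MRPS17, MRPS24 and MRPS28. RPL22, RPL26 and RPS15A, also of this group, had levels of 155 to 780. The overlaps come from another build than the authors' own, and their part in the fold changes was not tested.

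**Figure D4:**
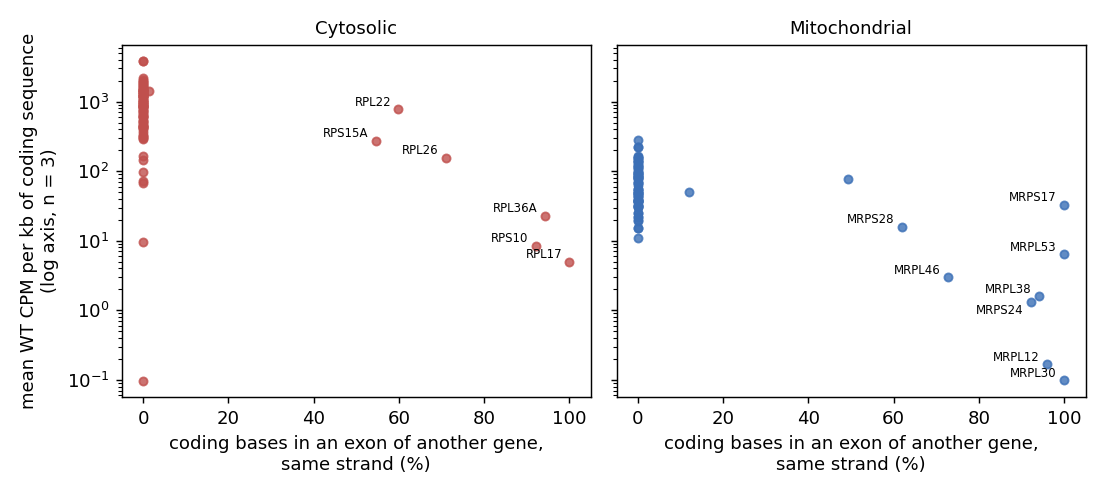
Mean WT CPM per kilobase of coding sequence (log axis, n = 3) against the percent of coding bases that lie in an exon of another gene on the same strand, for the members plotted. The genes with over 90% shared bases, named in the panels, lie at or below 32.6 CPM per kilobase, beside class medians of 851 and 51.4.

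The direction of a member's change went with its GC content. Of the 16 cytosolic genes with a log2 fold change above 0.5, 12 had a GC content of at least 55%, and of the 18 such mitochondrial genes 14 did. Over the tested members, Spearman's correlation of fold change with GC content was 0.62 in each class (83 and 75 genes of the same 4 libraries, a description). The 20 tested GC-rich cytosolic genes had a median log2 fold change of 0.57 and the 63 others -0.24. For the mitochondrial class these medians were 0.65 over 20 genes and -0.14 over 55. All tested genes gave 0.66 and -0.19, so that the members as measured resembled other genes of like GC content. With the trend on GC content and length removed as described below, the GC-rich medians differed more. They were 0.26 for cytosolic and -0.04 for mitochondrial genes, beside -0.07 for all tested genes.

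In summed reads the GC-rich and the other members lay on opposite sides of WT. GC-rich cytosolic genes took 1.07% of genic reads in the library labelled shARID1B, against 0.814%, 0.639% and 0.934% in WT1, WT2 and WT3, while the others took 2.81%, against 3.36%, 3.0% and 3.04%. GC-rich mitochondrial genes took 0.0708%, against 0.0428%, 0.0364% and 0.0466%, and the others 0.254%, against 0.295%, 0.278% and 0.264%. In each class the GC-rich sum lay above the WT range and the other sum below it.

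The WT libraries differed among themselves along the same line. For the 10 cytosolic genes of highest GC content (56.7% to 63.7%), WT3 was above WT2 in 10 of 10, with a median log2 ratio of 1.00, and their median fold change in the library labelled shARID1B over WT was 0.89. For the 10 mitochondrial genes of highest GC content (61.2% to 71.9%), WT3 was above WT2 in 9, with a median of 0.56, and the fold change was 1.18. The 10 lowest-GC genes of the classes had median fold changes of -0.31 and -0.26.

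Each library's smooth dependence on GC content and length was then taken out. It was estimated from these same libraries, so a difference that follows GC content or length is removed, whatever its source. Whether the differences removed were technical was not tested. The median log2 fold change became 0.00 for cytosolic and 0.04 for mitochondrial genes, beside -0.03 for all tested genes. Their interquartile ranges narrowed to 0.40 and 0.39, beside 0.78. Called were 1 cytosolic and 1 mitochondrial gene, both higher, beside 2.11% higher and 1.03% lower (3.14% in all) among all tested genes. These were RPL17 (2.45 ± 0.35, adjusted p = 0.0339) and MRPL12 (5.11 ± 0.54, adjusted p = 0.0202). MRPL12 passed the filter only through the library labelled shARID1B. The alternative filter at a mean count of 50 leaves it out, so it was not tested there. MRPL41 gave 0.21 (adjusted p = 0.588), MRPS34 0.04 (0.936) and MRPS2 0.54 (0.119), so that no gene of unshared coding sequence was called in either class.

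RPLP1, with 46.6% GC content, kept a value of 1.83 ± 0.43 (adjusted p = 0.113) after that step. MRPL52, of the mitochondrial large subunit and with 44.9% GC content, gave 0.81 as measured and 1.02 ± 0.19 (adjusted p = 0.0562) with the trend removed, from 60.9 CPM in the library labelled shARID1B, against 29.8, 36.0 and 38.4 CPM in WT. Both are high in the library labelled shARID1B without being GC-rich, and neither passed the threshold in either fit.

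**Figure D5:**
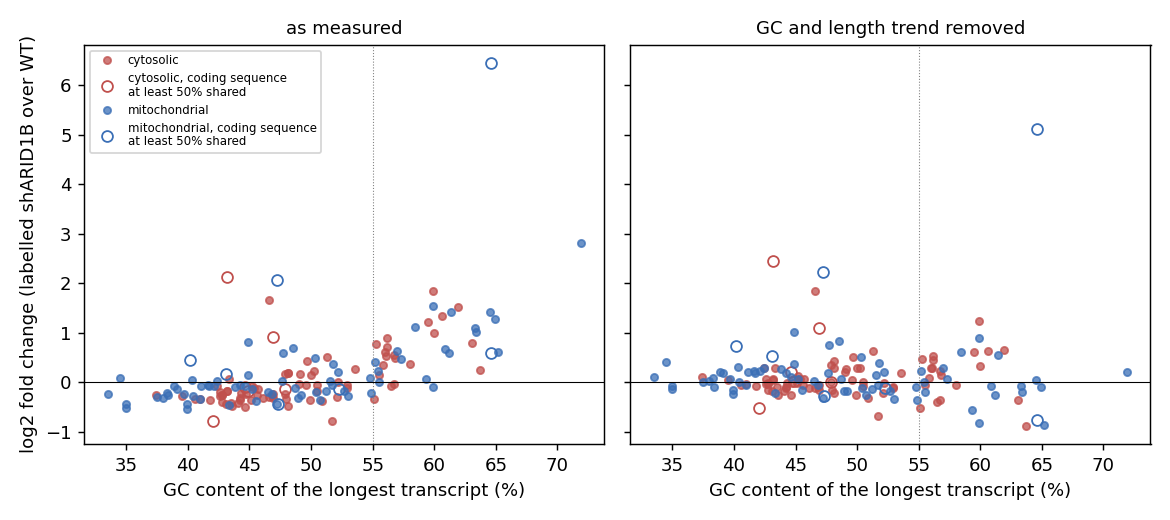
Log2 fold change (library labelled shARID1B over WT) against the GC content of the longest transcript, as measured (left) and without the trend on GC content and length (right), for cytosolic and mitochondrial genes. Open circles have at least 50% shared coding bases. On the left the values climb above 55% GC content (dotted line). On the right 69 of 83 cytosolic and 60 of 75 mitochondrial genes lie within 0.5 of 0, with RPL17 and MRPL12 among those outside.

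Genes around the ribosome were described by fixed lists, each with its count past the threshold and its median, beside the median of -0.05 for all tested genes. Of all tested genes 3.65% were called higher and 0.834% lower, or 2.11% and 1.03% with the trend removed. No list was tested against these shares, and in lists this short they allow few calls. Of 3 cytosolic ribosomal proteins under other names 0 were called (median 0.22), with FAU at 119 CPM in the library labelled shARID1B, against 63.8, 52.6 and 84.9 CPM in WT (0.83, adjusted p = 0.144). Of 5 mitochondrial ribosomal proteins under other names 0 were called (median 0.12), with DAP3 at 197 CPM, against 188, 213 and 180 CPM. The log2 fold changes were 0.03 for DAP3, 1.53 for AURKAIP1, -0.50 for PTCD3, 0.12 for CHCHD1 and 1.85 for GADD45GIP1. With the trend removed they were 0.21, -0.37, -0.27, 0.40 and 1.18 in that order.

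Of 39 tested genes of cytosolic ribosome biogenesis 1 was higher and 0 lower (median 0.12). It was RRP12, which exports pre-ribosomes, at 172 CPM in the library labelled shARID1B, against 66.7, 71.4 and 93.1 CPM in WT (1.16 ± 0.22, adjusted p = 0.0487, and 0.134 with the trend removed). Of 14 genes of RNA polymerase I and its factors, which transcribe ribosomal RNA, 0 were called (median 0.04). Of 13 other TOP mRNAs 1 was higher and 0 lower (median -0.26), the elongation factor EEF2, at 3116 CPM, against 1279, 950 and 1493 CPM (1.33 ± 0.25, adjusted p = 0.0491, and 0.0665 with the trend removed). RRP12 did not pass without WT2 (adjusted p = 0.0964), nor EEF2 without WT2 (0.0663) or WT3 (0.0549). Both were also lost by upper-quartile scaling (0.0552 for RRP12, 0.0575 for EEF2) and at a mean count of 50 (0.0537 and 0.052), and RRP12 without robust shrinkage (0.0527) and by limma-voom (0.0521).

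Of 13 mitochondrial translation factors 0 were called (median -0.32, and -0.07 with the trend removed), and of 20 mitochondrial ribosome assembly genes 0 (median 0.12). Of 12 genes of mitochondrial transcription and biogenesis 1 was higher and 1 lower (median 0.27). GABPB1 passed the threshold, higher, with the trend removed but not as measured (1.11 ± 0.15 and 0.82 ± 0.20). It measured 51.9 CPM in the library labelled shARID1B, against 29.8, 31.6 and 26.9 CPM in WT. POLRMT, the mitochondrial RNA polymerase, measured 125 CPM in the library labelled shARID1B, against 25.8, 19.0 and 39.9 CPM in WT (2.14 ± 0.38, adjusted p = 0.0469, and 0.179 with the trend removed). PPARGC1B, a coactivator of genes for mitochondrial biogenesis, measured 6.83 CPM, against 17.7, 19.6 and 20.2 CPM (-1.49 ± 0.27, adjusted p = 0.0431, and 0.0266 with the trend removed). Short of the threshold, PPARGC1A measured 1.59 CPM, against 25, 8.72 and 10.1 CPM (-3.18 ± 0.89, and -2.90 with the trend removed). Also short of it, ESRRA measured 50.2 CPM, against 10.4, 8.49 and 18.9 CPM (1.99 ± 0.43, and 0.87 with the trend removed). POLRMT did not pass without WT1 (adjusted p = 0.0517) or WT2 (0.0639) or at a mean count of 50 (0.0503), nor PPARGC1B without WT2 (0.0792) or WT3 (0.0904) or by limma-voom (0.0553).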

How the data were processed

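The authors deposited raw read counts per gene, 1 file per library. The submitters' processing notes name HISAT2, HTSeq, bcl2fastq and DESeq2, and GRCh37 (hg19). Their versions, the counting mode, strand setting and annotation are not given in sources used here. Overlapping and antisense genes therefore have uncertain counts. Each file's 5 summary lines were dropped. Symbols, coding length and GC content came from GENCODE 29, which matched 52338 identifiers (90.5%), and promoters from RefSeq GRCh38.p14.

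All 17024 genes kept by filterByExpr (minimum count 10, total 15) were fitted with edgeR 4.0.16 in R 4.3.3 (TMM, glmQLFit robust, glmQLFTest), with 2 residual degrees of freedom that come from WT alone. The shRNA library is taken to vary as WT does. Benjamini-Hochberg adjustment covered every tested gene, the threshold was 0.05, and SE is the absolute log2 fold change over the square root of F. The GC and length trend was estimated by loess (span 0.3, mean count of at least 20). Alternatives were RLE and upper-quartile scaling, TMM without members, no filter, a mean count of 50, no robust shrinkage, DESeq2 1.42.0, limma-voom 3.58.1 and leaving out each WT library. The rule for naming genes took ARID1B, the called genes, and the 4 highest and 4 lowest fold changes of each class. It also took the 4 highest levels of each class, paralogue pairs, genes of known roles and called genes of each list. Not every gene that it took is given above. MRPL52, AURKAIP1, PTCD3, CHCHD1, GADD45GIP1, GABPB1, PPARGC1A and ESRRA were added after their values were seen. A member and a gene list are not reported here. The members, lists and rules were chosen with earlier results of these data known. The procedure was tested on simulated counts.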

Additional observations from a re-analysis of the deposited data

Results flagged for a closer look

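Reads that HTSeq set aside as ambiguous, which the comparisons do not use, came to 7.67 per 100 assigned reads in the library labelled shARID1B, against 7.1, 6.86 and 7.21 in WT1, WT2 and WT3, above the level of every control library.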

How the results depend on the processing

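The 763 genes called among all genes became 3226 without a filter on low counts, 1775 by DESeq2 and 496 with the GC trend alone removed, and leaving out a WT library gave 157 (without WT2) to 1189 (without WT1), with 478 without WT3. The 1 cytosolic gene called higher became 10 without a filter, 6 by DESeq2, 2 with every gene that matches the name rule (RPS19BP1 added), 0 without members of at least 50% shared coding sequence (chosen after seeing the data), and 0 to 2 over the WT libraries left out. The 4 mitochondrial genes became 11 without a filter, 7 by DESeq2, 1 with the GC trend removed, alone or with length, and 1 to 4 over the WT libraries left out, 1 being without WT2. No filter tests 30709 genes.

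The cytosolic median of -0.12 became -0.24 by upper-quartile scaling, 0.00 with the GC and length trend and -0.03 with the GC trend removed. The mitochondrial median of -0.05 became -0.18 by upper-quartile scaling, -0.09 without a filter, 0.04 with the GC and length trend and -0.01 with the GC trend removed, and -0.09 to -0.01 over the WT libraries left out. Their difference of 0.07 became 0.02 with the GC trend removed and 0.05 to 0.12 over the WT libraries left out. Upper-quartile scaling moved the median of all tested genes by -0.12 and the fit without a filter by -0.22. The cause of the other shifts was not tested.

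Signs turned mostly among values near 0. With the GC trend alone removed MRPL41 became -0.07 and MRPS34 -0.10. With the GC and length trend removed ARID1B became -0.10, RPL37 0.05, MRPL18 0.06, MRPL33 0.26, RPL3 -0.07, RPL7 0.04, RPL7L1 0.06, RPL10 -0.01, RPL22 0.01, RPL26 0.20, RPL36AL 0.29, RPL5 0.10, RPS6 0.07, RPLP0 0.01 and MRPS18C 0.21. With the GC trend alone removed RPL37 became 0.04, MRPL33 0.12, RPL3 -0.06, RPL7 0.01, RPL7L1 0.08, RPL10 -0.06, RPL26 0.11, RPL36AL 0.15, RPL5 0.02, RPS6 0.02 and MRPS18C 0.20. By upper-quartile scaling RPL10 became -0.12, RPS27L -0.06 and DAP3 -0.10, and RPL10 was -0.02 without a filter and 0.00 at a mean count of 50. Without WT1 RPLP0 became 0.09, without WT2 RPL10 -0.03, and without WT3 RPL10 0.00 and DAP3 -0.03. Over the WT libraries left out MRPL33 ran from -0.19 to 0.02 and MRPS18C from -0.14 to 0.00, both turning without WT2. No paired analysis was possible because the shRNA arm is a single library whose label carries no replicate number.

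Depth limits the lowest genes: 3 reads, the limit that a count of 0 allows, are 0.342 CPM in the library labelled shARID1B, so no difference of RPL3L or MRPL30 was detectable.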

Other observations

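RPS19BP1, which the name rule takes although it is not a ribosomal protein, measured 70.5 CPM in the library labelled shARID1B, against 25.4 ± 3.83 CPM in WT (SD, n = 3). Its log2 fold change was 1.47 ± 0.23 (adjusted p = 0.0327) and 1.48 ± 0.18 (adjusted p = 0.0262) with the GC and length trend removed, and it was named after its values were seen. AURKAIP1, a mitochondrial ribosomal protein under another name, measured 110 CPM, against 36.8, 24.9 and 52.3 CPM in WT1, WT2 and WT3, and its log2 fold change was 1.53 as measured and -0.37 with that trend removed (adjusted p = 0.0891 and 0.222).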
